A study of Mus musculus with 12 samples.

Results

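The MHC class II presentation genes were followed as a set of 10: the invariant chain Cd74, the classical chains H2-Aa, H2-Ab1 and H2-Eb1, the peptide exchange genes H2-DMa, H2-DMb1, H2-DMb2, H2-Oa and H2-Ob, and the transactivator Ciita. They were taken by name, through the mouse symbol of each Entrez identifier, a rule that sets no threshold on a measured value, and all 10 were found among the 27179 genes of the count table. The cells were ductal macrophages of the mammary gland, sorted from female C57BL/6 mice, an inbred laboratory strain, and their RNA was sequenced at 4 stages of the reproductive cycle. These were Virgin, Pregnant at day 16.5, Lactating, and Post-weaning at 1 month after weaning, with 3 libraries labelled as biological replicates at each stage and 12 in all. Every library was made from 2000 sorted cells with the SMART-Seq v4 kit, a full-length cDNA method for small inputs that adds no molecular identifiers. No transgene, deletion or drug is named for any group. The sources used here do not give the gating of the cells, the age of the mice, the day of lactation or whether a library came from 1 mouse or several. The p-values therefore measure the spread between these libraries, which may be partly technical.

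MHC class II molecules show peptides from endocytosed protein to CD4 T cells. An alpha and a beta chain assemble in the endoplasmic reticulum on the invariant chain, which fills the groove and steers the complex to endosomes. There proteases such as cathepsin S trim the invariant chain to a fragment called CLIP, and H2-DM exchanges CLIP for antigen peptides, while H2-DO binds H2-DM and restrains it. Transcription of the set depends on Ciita, a coactivator that does not bind DNA itself and docks on factors seated at the X and Y boxes upstream of class II genes. In mice of the C57BL/6 strain the H2-Ea gene, which encodes the alpha partner of H2-Eb1, carries a promoter deletion, so that no I-E molecule is made.

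By RefSeq coordinates on GRCm38.p6, the assembly behind mm10, 8 of the 10 genes lie within 224 kb of chromosome 17, at chr17:34092379-34316674. Ciita lies apart from them at chr16:10480014-10531064, and Cd74 on another chromosome. RefSeq promoters on GRCm38.p6 were matched for 7 of the 10 genes, with 8 start sites because H2-DMa has 2, and the entries of Cd74, H2-Ab1 and Ciita are missing. The 250 bases before each start were searched on both strands for the X box letters, AGNAAC followed by any 3 bases and TGA, and the Y box letters CCAAT, which read ATTGG on the other strand. Neither motif contains the other.

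The promoters shown here are H2-Eb1 and H2-Ob, in which the letters of the X box stand ahead of ATTGG within 40 bases. Next to them are 2 promoters of the set that hold ATTGG without an exact match to the X box letters. The search did not look for variants of these letters. Each runs 5′ to 3′ toward the start of its gene in the direction of transcription and stops before the first exon that GENCODE M21 annotates, and capitals mark the matched letters.
H2-Eb1 (chr17:34305737-34305866, plus strand): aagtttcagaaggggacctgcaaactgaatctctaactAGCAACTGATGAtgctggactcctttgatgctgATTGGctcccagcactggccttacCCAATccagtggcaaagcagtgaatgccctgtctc
H2-Ob (chr17:34238775-34238902, plus strand): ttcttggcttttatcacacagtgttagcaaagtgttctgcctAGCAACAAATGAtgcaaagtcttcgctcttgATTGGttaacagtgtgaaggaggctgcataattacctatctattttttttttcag
H2-DMb2 (chr17:34145119-34145235, plus strand): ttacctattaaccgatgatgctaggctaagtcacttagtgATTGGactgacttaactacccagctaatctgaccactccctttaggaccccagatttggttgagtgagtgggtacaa
H2-Aa (chr17:34287824-34287953, minus strand): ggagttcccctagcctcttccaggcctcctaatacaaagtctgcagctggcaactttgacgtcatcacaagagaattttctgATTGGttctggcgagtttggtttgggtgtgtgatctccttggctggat

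H2-DMb1 holds the same order of letters, with AGTAACTGATGA starting 95 bases before its RefSeq start and ATTGG 34 bases further on. Its promoter is not shown because an exon that GENCODE M21 annotates begins ahead of these letters. In H2-Eb1 that distance is 33 bases and in H2-Ob 31 bases. The X box letters were found in 3 of the 8 promoters of the set, against 0.91% of all 32851 mouse promoters in the table. The Y box letters were found in 7 of 8, against 33.8% of all. The ordered pair within 40 bases occurred in 14 promoters of the whole table (0.0426%), of which 3 belong to H2-Eb1, H2-DMb1 and H2-Ob. The X and Y boxes are known from class II promoters, so these shares are no independent result about the set. A match of letters is a description of the sequence, not a bound site, and no binding was measured here.

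**Figure D1:**
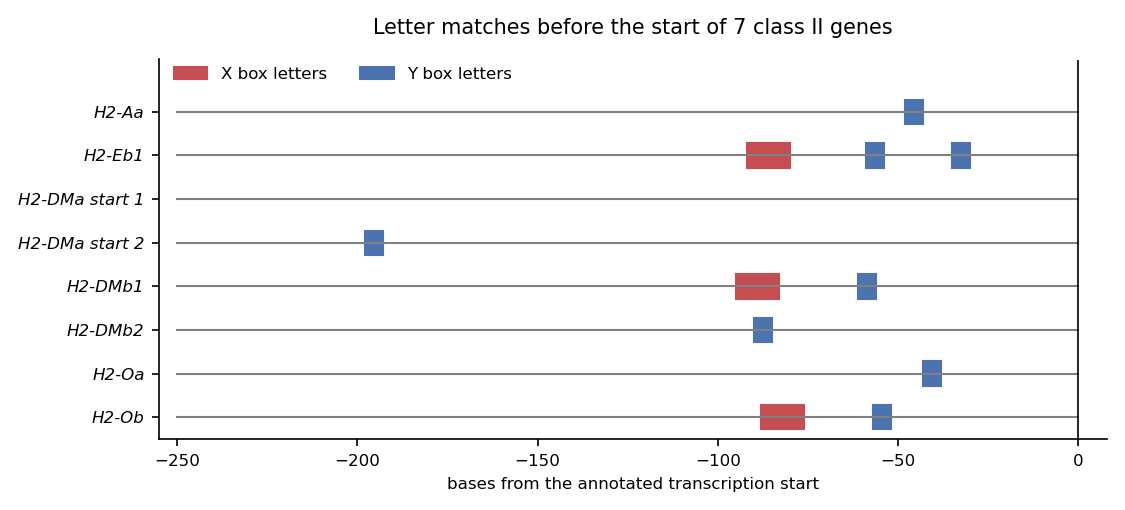
Position of the matched letters in the 250 bases before the RefSeq start of 7 class II genes, with both starts of H2-DMa; the x axis is the distance from the start in bases. Red boxes mark the X box letters and blue boxes the Y box letters, and the red boxes of H2-Eb1, H2-DMb1 and H2-Ob sit 92, 95 and 88 bases before the start.

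The libraries held between 6926273 and 21204704 gene counts. Lactating replicate 3 stood apart from the rest: 12 milk and secretory cell genes took 7.47% of its counts, against 0.0687% to 1.53% in the other 11 libraries, and the 12 macrophage identity genes took 1.03%, against 1.55% to 4.28%. It differed from the other Lactating libraries by a chi-square per degree of freedom of 302 and 333, where the remaining pairs within a stage ranged from 31.4 to 85.4. The TMM scaling factors of Lactating replicates 1 and 2 were 0.791 and 0.792, and those of the other 10 libraries ran from 1.00 to 1.14, so their scaled levels lie above their unscaled ones. All 12 macrophage identity genes, Adgre1 (F4/80), Csf1r and C1qa among them, had counts in all 12 libraries, but Mertk was low in the Lactating libraries, at 7.80, 0.73 and 0.088 CPM against 18.3 to 93.7 CPM at the other stages (log2 fold change -4.22 ± 1.16 against Virgin, edgeR adjusted p = 0.103). Of 12 B cell and plasma cell markers, a type that also carries class II, Pax5, Fcmr and Fcer2a were at 0 in all 12 libraries, while Ighm reached 162 to 460 CPM. Jchain had 446 and 97.5 CPM in Lactating replicates 2 and 3, 0 in Lactating replicate 1 and at most 2.93 CPM at the other stages. The list together held 0.0216% to 0.0655% of counts. The 12 dendritic cell markers held 0.0196% to 0.0516%, with Flt3 and Zbtb46 at 0 in 6 and 9 of the 12 libraries and Cd209a at 0 in all but Virgin replicate 3. In that list Siglech, at 58.8 to 237 CPM, and Dpp4, at 33.7 to 176 CPM, had counts in all 12 libraries. Their means were 205 and 149 CPM in Pregnant and 91.0 and 76.2 CPM in Virgin libraries, and the edgeR adjusted p of these differences was 0.256 and 0.393. Clec9a and Batf3 went the other way, with means of 2.94 and 11.3 CPM in Pregnant and 9.76 and 22.2 CPM in Virgin libraries. The 11 dendritic cell markers tested had a median log2 fold change of -0.26 in Pregnant against Virgin, against 0.03 over all genes. In Lactating against Virgin their median was -0.23, against -0.06 over all genes. In that list Ccr7 had 32.1, 49.5 and 25.4 CPM in the Lactating libraries and 0 to 24.0 CPM at the other stages, and edgeR did not call it. Flt3, Zbtb46 and Itgae were at 0 in all Lactating libraries. H2-Ea, looked up after the levels of the set were seen, reached 0 to 11.7 CPM.

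Levels are CPM, gene counts relative to a fixed library size, here on TMM-scaled library sizes. Divided by the exonic length in the table and averaged over the 4 stages, Cd74 led with 50864 CPM per kb, followed by H2-Ab1 at 22761, H2-Aa at 14071 and H2-Eb1 at 7089. The H2-DM genes H2-DMa and H2-DMb1 followed at 877 and 706 CPM per kb. The lowest levels per kb were those of H2-Oa at 55.8, H2-DMb2 at 37.0, Ciita at 16.8 and H2-Ob at 12.9. The ranges over the 12 libraries overlapped between all neighbours in this order except H2-Eb1 and H2-DMa, and H2-DMb1 and H2-Oa, so that 3 tiers of levels stood apart beyond their spread. In all 12 libraries Cd74 exceeded H2-Ab1 per kb, by 1.67 to 2.61 times, and H2-Aa stayed below H2-Ab1, at 0.508 to 0.924 of its level. The set took 11.9%, 12.03% and 12.9% of all counts in Virgin and 10.9%, 10.3% and 9.42% in Pregnant libraries. Lactating libraries had shares of 17.1%, 16.2% and 6.58%, and Post-weaning libraries 14.0%, 12.7% and 15.1%. Cd74 and the 3 classical chains made up 98.3% to 98.8% of that in every library. In these bulk samples fewer class II positive cells and less RNA per cell cannot be told apart.

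Cd74, the invariant chain, whose gene lies at chr18:60803849-60812652, reached 66151, 63278 and 69116 CPM in Virgin and 55657, 49845 and 37703 CPM in Pregnant libraries. The Lactating libraries had 124620, 115470 and 31319 CPM and the Post-weaning libraries 82589, 76244 and 91682. The Pregnant libraries lay below all Virgin and all Post-weaning libraries, and Lactating replicates 1 and 2 were the highest of the 12 while replicate 3 was the lowest. In the edgeR fit the log2 fold change of Cd74 was -0.47 ± 0.41 (SE) in Pregnant against Virgin, 0.92 ± 0.41 in Lactating against Pregnant and 0.81 ± 0.41 in Post-weaning against Pregnant. None passed, with adjusted p = 0.807, 0.257 and 0.561. The SE of each comparison in this fit rests on the spread within all stages, the Lactating libraries included.

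H2-Ab1, the beta chain of the I-A molecule, had 23723, 25011 and 25704 CPM in the Virgin and 24579, 25164 and 18679 in the Pregnant libraries. The Lactating libraries had 45741, 43887 and 11572 CPM and the Post-weaning libraries 26837, 24676 and 30269. Lactating replicates 1 and 2 were again the highest and replicate 3 the lowest, and the other 3 stages overlapped. H2-Aa, the alpha chain of I-A, had 15893, 14653 and 12366 CPM in the Virgin and 11178, 12871 and 15462 in the Pregnant libraries. It reached 24665, 24284 and 8771 CPM in the Lactating and 13314, 12259 and 14792 in the Post-weaning libraries, with the same 2 libraries on top and the same library at the bottom.

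H2-Eb1, the beta chain of the I-E molecule, had 11285, 11829 and 10732 CPM in Virgin and 9738, 9804 and 9699 CPM in Pregnant libraries. The Lactating libraries had 18565, 19044 and 7613 CPM and the Post-weaning libraries 11219, 10011 and 12448. Every Pregnant library was below every Virgin and every Post-weaning library, though by a small margin: the log2 fold changes were -0.21 ± 0.30 and, for Post-weaning against Pregnant, 0.20 ± 0.30, with edgeR adjusted p = 0.928 and 0.994. The 3 Pregnant libraries were close to each other, with a standard deviation of 0.0078 in log2 CPM. Across Cd74 and the 3 classical chains that deviation was 0.059 to 0.18 in Virgin, 0.0078 to 0.29 in Pregnant and 0.13 to 0.16 in Post-weaning libraries, against 0.75 to 1.13 in Lactating libraries. Genes with a mean log2 CPM of at least 5 had median deviations of 0.34, 0.27, 0.24 and 0.51 in those stages. The ranges therefore lay around or below that median outside lactation and above it in lactation.

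**Figure D2:**
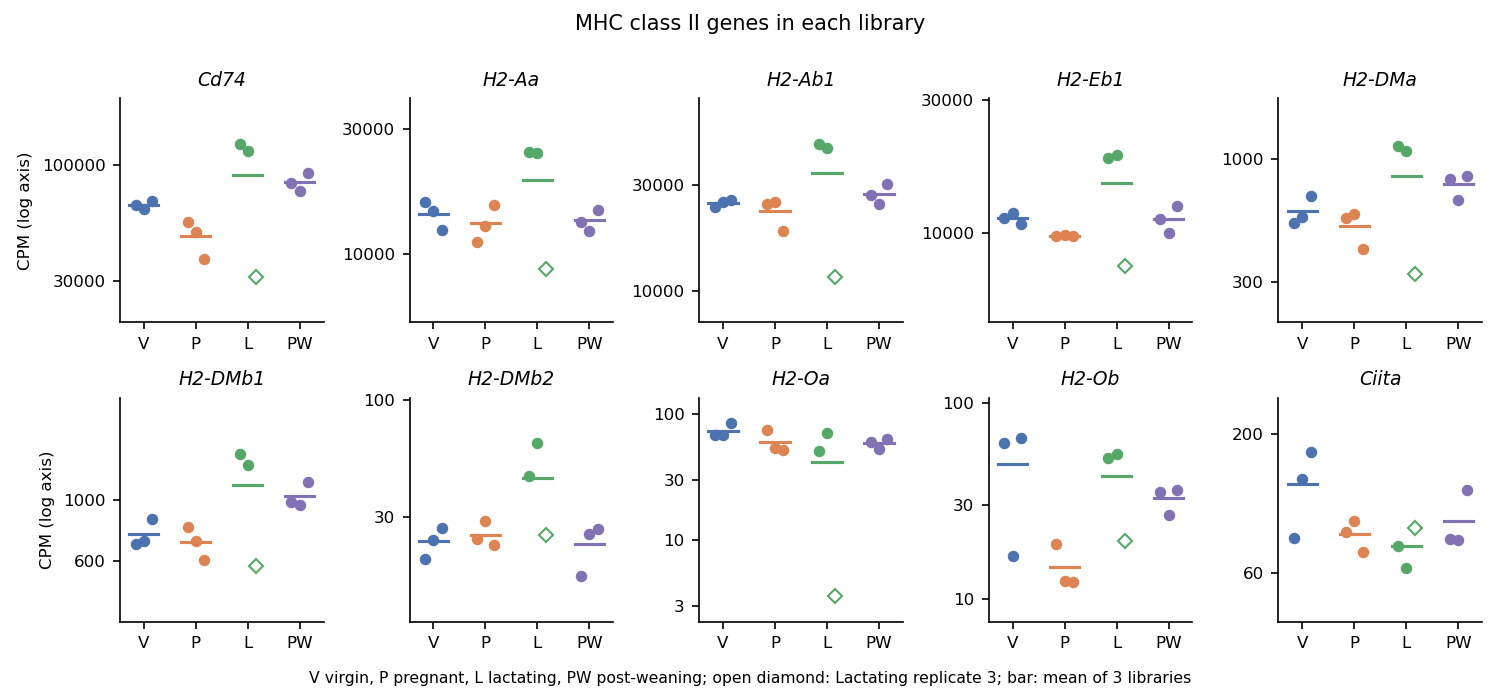
CPM of each of the 10 genes in every library, on log axes, by stage (V Virgin, P Pregnant, L Lactating, PW Post-weaning); bars are the means of 3 libraries and the open diamond is Lactating replicate 3. For Cd74 the diamond sits at 31319 CPM, under every other point, while the other Lactating points sit at 124620 and 115470.

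H2-DMa, the alpha chain of the peptide exchange factor, had 536, 566 and 697 CPM in Virgin and 559, 584 and 417 CPM in Pregnant libraries. The Lactating libraries had 1129, 1075 and 324 CPM and the Post-weaning libraries 819, 668 and 849. Its beta chain gene H2-DMb1 had 691, 710 and 855 CPM in the Virgin and 795, 710 and 605 in the Pregnant libraries. Both genes shared the pattern of the classical chains, with Lactating replicates 1 and 2 on top and replicate 3 at the bottom. H2-DMb1 had 1479, 1342 and 576 CPM in the Lactating and 988, 962 and 1167 in the Post-weaning libraries, so that the Post-weaning libraries exceeded every Virgin and every Pregnant library. Its log2 fold change was 0.47 ± 0.30 in Post-weaning against Virgin and 0.56 ± 0.30 in Post-weaning against Pregnant, with edgeR adjusted p = 1 and 0.588.

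H2-DMb2, the second beta chain gene of H2-DM, was much lower, with 19.6, 23.8 and 26.9 CPM in the Virgin and 23.9, 28.8 and 22.6 in the Pregnant libraries. It had 45.9, 63.8 and 25.1 CPM in the Lactating and 16.5, 25.4 and 26.5 in the Post-weaning libraries. Here Lactating replicate 3 lay within the range of the other stages rather than below it. The log2 fold change of Lactating against Virgin was 0.94 ± 0.39 (unadjusted p = 0.0334) and that of Post-weaning against Lactating was -0.98 ± 0.39 (unadjusted p = 0.0277), with edgeR adjusted p = 0.254 and 0.268. Of the stretches of 75 bases in the transcript of H2-DMb1, 19.1% also occur in H2-DMb2, and 19.9% of those of H2-DMb2 occur in other genes, H2-DMb1 among them, so reads could be shared between them and the values of both are uncertain. The other 8 genes shared no such stretch. Exons of H2-DMa, H2-Oa and Ciita overlap antisense genes, Brd2, BC051537 and Dexi, over 360, 321 and 329 bases, and the sources used here do not say whether the counting used strand.

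H2-Oa, the alpha chain of H2-DO, did not follow the classical chains. It had 67.8, 68.8 and 84.5 CPM in the Virgin, 74.1, 54.3 and 51.5 in the Pregnant and 59.9, 53.1 and 62.8 in the Post-weaning libraries. In the Lactating libraries it had 51.3, 70.5 and 3.60 CPM, the last from 41 counts. Replicate 3 was the lowest here too, replicate 1 was the next lowest of the 12, and replicate 2 lay within the range of the other stages. Pearson's r of its log2 CPM with the mean scaled log2 CPM of Cd74 and the 3 classical chains was 0.585 over the 12 libraries (Spearman's rho 0.210) and -0.04 without Lactating replicate 3, as a description with no test. H2-Ob, the beta chain of H2-DO, was the most variable of the set among the Virgin libraries, at 62.5, 16.5 and 66.6 CPM, and was low in the Pregnant libraries, at 19.0, 12.4 and 12.3. It had 52.2, 54.8 and 19.7 CPM in the Lactating and 35.4, 26.7 and 35.9 in the Post-weaning libraries. All Lactating and Post-weaning libraries exceeded all Pregnant ones. Against Virgin, H2-Ob in Pregnant gave the lowest unadjusted p of the set, 0.00764, at a log2 fold change of -1.74 ± 0.54, and did not pass the edgeR test (adjusted p = 0.197). DESeq2 called it, at -1.78 and adjusted p = 0.0309. Without Lactating replicate 3 the edgeR value was -1.74 ± 0.46 with adjusted p = 0.0695. The B cell marker list held 0.0277% to 0.0485% of counts in Virgin and 0.0216% to 0.0266% in Pregnant libraries, but its genes did not move together. In that list Cd79b, a chain of the B cell receptor complex, had 31.9, 21.2 and 36.1 CPM in the Virgin and 3.34, 1.72 and 0.87 in the Pregnant libraries, a log2 fold change of -3.92 ± 1.19 with unadjusted p = 0.00682 and edgeR adjusted p = 0.189. In the Lactating libraries Cd79b had 1.91, 0.18 and 0 CPM, unlike H2-Ob. Ighm had means of 326 CPM in Virgin and 189 in Pregnant libraries. Cd22, Ms4a1 and Ighd went the other way, with means of 16.2, 0 and 0 CPM in Virgin and 23.5, 2.64 and 0.85 in Pregnant libraries. The 6 markers tested had a median log2 fold change of 0.27 in Pregnant against Virgin, against 0.03 over all genes. Pax5, Fcmr and Fcer2a were at 0 throughout, and Cd22 had 12.7 to 35.9 CPM over the 12 libraries. The part of these genes in the result was not tested.

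Ciita, the transactivator of the set, had 81.5, 135 and 172 CPM in the Virgin and 85.5, 94.4 and 71.9 in the Pregnant libraries. The Lactating libraries had 75.4, 62.7 and 88.5 CPM and the Post-weaning libraries 80.3, 79.9 and 123. Its values overlapped in every pair of stages, and the 2 Lactating libraries with the most Cd74 had the lowest and the third lowest Ciita levels of all 12. The log2 fold change was -0.78 ± 0.30 in Lactating against Virgin (unadjusted p = 0.0225, edgeR adjusted p = 0.222) and -0.63 ± 0.30 in Pregnant against Virgin (unadjusted p = 0.0557, adjusted p = 0.430). As a description over the 12 libraries, Ciita had Pearson r = -0.22 and Spearman rho = -0.20 with the mean standardized log2 level of Cd74 and the 3 classical chains, and r = -0.30 without Lactating replicate 3. These points share the scaling and the depth of each library.

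Over the 4 stages the lowest mean of the stages was the Pregnant one for 7 of the 10 genes, Cd74, the 3 classical chains, H2-DMa, H2-DMb1 and H2-Ob, and no gene of the set was called by edgeR in any comparison when all 12 libraries were fitted. All 10 genes passed the filter on low counts. In Pregnant against Virgin, edgeR called 0 of 10, where 1.32% of all 12672 genes tested were called, and 1 of 10 had an unadjusted p under 0.05 (1547 of all genes). In this comparison 9 of 10 had a lower level, with a median log2 fold change of -0.21 against 0.03 over all genes. In Lactating against Virgin, 0 of 10 were called (1.94% of all genes), 2 had an unadjusted p under 0.05 (2129 of all genes), 7 were higher and the median was 0.44 against -0.06. In Lactating against Pregnant, 0 of 10 were called (3.85% of all genes), 3 had an unadjusted p under 0.05 (2357 of all genes), 8 were higher and the median was 0.66 against -0.14. DESeq2 called 1 of 10 in the first of these comparisons, H2-Ob, and none in the other 2, and limma-voom called none in any.

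The Post-weaning stage was set against each of the others. In Post-weaning against Virgin, edgeR called 0 of 10 and 0% of all genes, 0 of 10 had an unadjusted p under 0.05 (765 of all genes), and the median was -0.02 against 0.02. In Post-weaning against Pregnant, 0 of 10 were called (0.718% of all genes), 1 had an unadjusted p under 0.05 (1297 of all genes), 8 were higher and the median was 0.23 against 0.01. In Post-weaning against Lactating, 0 of 10 were called (0.923% of all genes), 1 had an unadjusted p under 0.05 (1912 of all genes), 8 were lower and the median was -0.22 against 0.08. DESeq2 and limma-voom called none in these 3 comparisons. The test of any difference between stages called 0 of 10 (3.35% of all genes), with 1 unadjusted p under 0.05 (2113 of all genes), that of H2-Ob at 0.0420, and DESeq2 and limma-voom called 0 of 10 there.

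Some genes separated the stages without passing the test. The 3 Post-weaning libraries lay above the 3 Pregnant libraries for 5 genes, Cd74, H2-Eb1, H2-DMa, H2-DMb1 and H2-Ob, as did 14% of all genes tested. H2-Eb1, H2-DMb1 and H2-Ob, whose promoters hold the ordered X and Y letters given above, are among these 5. So are H2-DMa, whose promoters lack the X letters, and Cd74, whose promoter entry is missing. A link between the letters and the separation was not tested. In Pregnant against Virgin, Cd74 and H2-Eb1 lay lower without overlap (10.7% of all genes). In Post-weaning against Virgin, Cd74 and H2-DMb1 lay higher (8.83% of all genes) and H2-Oa lower (6.55%). H2-Ob lay higher in Lactating than in Pregnant libraries (9.5% of all genes). No gene of the set separated Lactating from Virgin libraries (17.3% of all genes, in either direction) or from Post-weaning libraries (21.6%). By the share of counts in the set, which uses no scaling, Pregnant libraries were below Virgin by 2.09 percentage points and Post-weaning libraries above Pregnant by 3.74 percentage points. Each of these pairs of stages did not overlap and gave p = 0.1 in the exact two-sided permutation test, which is the smallest p that 3 against 3 allow, and 0.3 after adjustment over 6 pairs.

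The Lactating stage split the set. Lactating replicates 1 and 2 were the top 2 libraries of all 12 for 7 of the 10 genes, which held for 4.55% of all genes tested, and Lactating replicate 3 was the lowest for 7, which held for 22.4%. Both held for 6 genes, Cd74, H2-Aa, H2-Ab1, H2-Eb1, H2-DMa and H2-DMb1, against 1.01% of all genes. For those 6, the mean of replicates 1 and 2 was 2.45 to 3.87 times the level in replicate 3. On unscaled CPM, with no TMM factor, replicates 1 and 2 were the top 2 for 5 of the 10 genes. Cd74 then had 98470 and 91231 in them and up to 91638 in the Post-weaning libraries.

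Left out of the fit, Lactating replicate 3 made the difference between 0 and 6 calls. Without it edgeR, on 13426 genes, called 6 of 10 higher in Lactating than in Virgin libraries (1.76% of all genes were called higher). Cd74 had a log2 fold change of 0.81 ± 0.15 with adjusted p = 0.0125, and H2-Ab1 had 0.81 ± 0.14 with adjusted p = 0.00885. The others were H2-Aa at 0.73, H2-Eb1 at 0.69, H2-DMa at 0.83 and H2-DMb1 at 0.86, with adjusted p of 0.00865 to 0.0325. The same 6 genes were called higher in Lactating than in Pregnant libraries (3.31% of all genes), from 0.84 for H2-Aa to 1.28 ± 0.15 for Cd74 with adjusted p = 0.000345. Cd74 was also called higher in Post-weaning than in Pregnant libraries, at 0.82 ± 0.13 with adjusted p = 0.0085 (1.69% of all genes). No library of these 2 stages was removed, and with all 12 libraries the value was 0.81 ± 0.41. All stages share 1 estimate of the spread, so Lactating replicate 3 also widened the SE of comparisons without Lactating libraries. In Pregnant against Virgin the SE was 0.41 with it and 0.13 without it for Cd74, and 0.30 and 0.11 for H2-Eb1. H2-Aa, H2-Ab1 and H2-Eb1 were called lower in Post-weaning than in Lactating libraries, at -0.80, -0.65 and -0.68 (0.968% of all genes were called lower). The test of any difference called the same 6 (5.76% of all genes). No gene of the set was called in Pregnant against Virgin (3.26% of all genes) or in Post-weaning against Virgin (0.0745%), where 3 of 10 each had an unadjusted p under 0.05. The share of all genes under that unadjusted p was not counted in this fit, so no excess can be read from it.

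These calls also rested on the scaling. With library totals in place of TMM, and Lactating replicate 3 left out, 0 of 10 were called in Lactating against Virgin (4.48% of all genes), with the lowest adjusted p at 0.0504, and Cd74, H2-Ab1 and H2-Eb1 were called in Lactating against Pregnant, at 0.89, 0.54 and 0.50 (7.29% of all genes). None was called in Post-weaning against Lactating (2.26% of all genes), where the lowest adjusted p was 0.0997. These shares of all genes count calls in either direction. The 1.76%, 3.31% and 0.968% given above under TMM count 1 direction only, so the 2 sets of shares are not like for like. The median of all genes in Lactating against Pregnant shifted from -0.25 under TMM to -0.64 under library totals, and that of the set from 0.94 to 0.55, so both medians were lower by about the same amount. Cd74 stayed called in Post-weaning against Pregnant, at 0.73 with adjusted p = 0.00985. With only 2 Lactating libraries in these fits, their spread is taken from all stages. What sets replicate 3 apart cannot be told from its labels. Its milk gene share of 7.47% and macrophage gene share of 1.03% stand beside these values, and their part in the result was not tested.

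**Figure D3:**
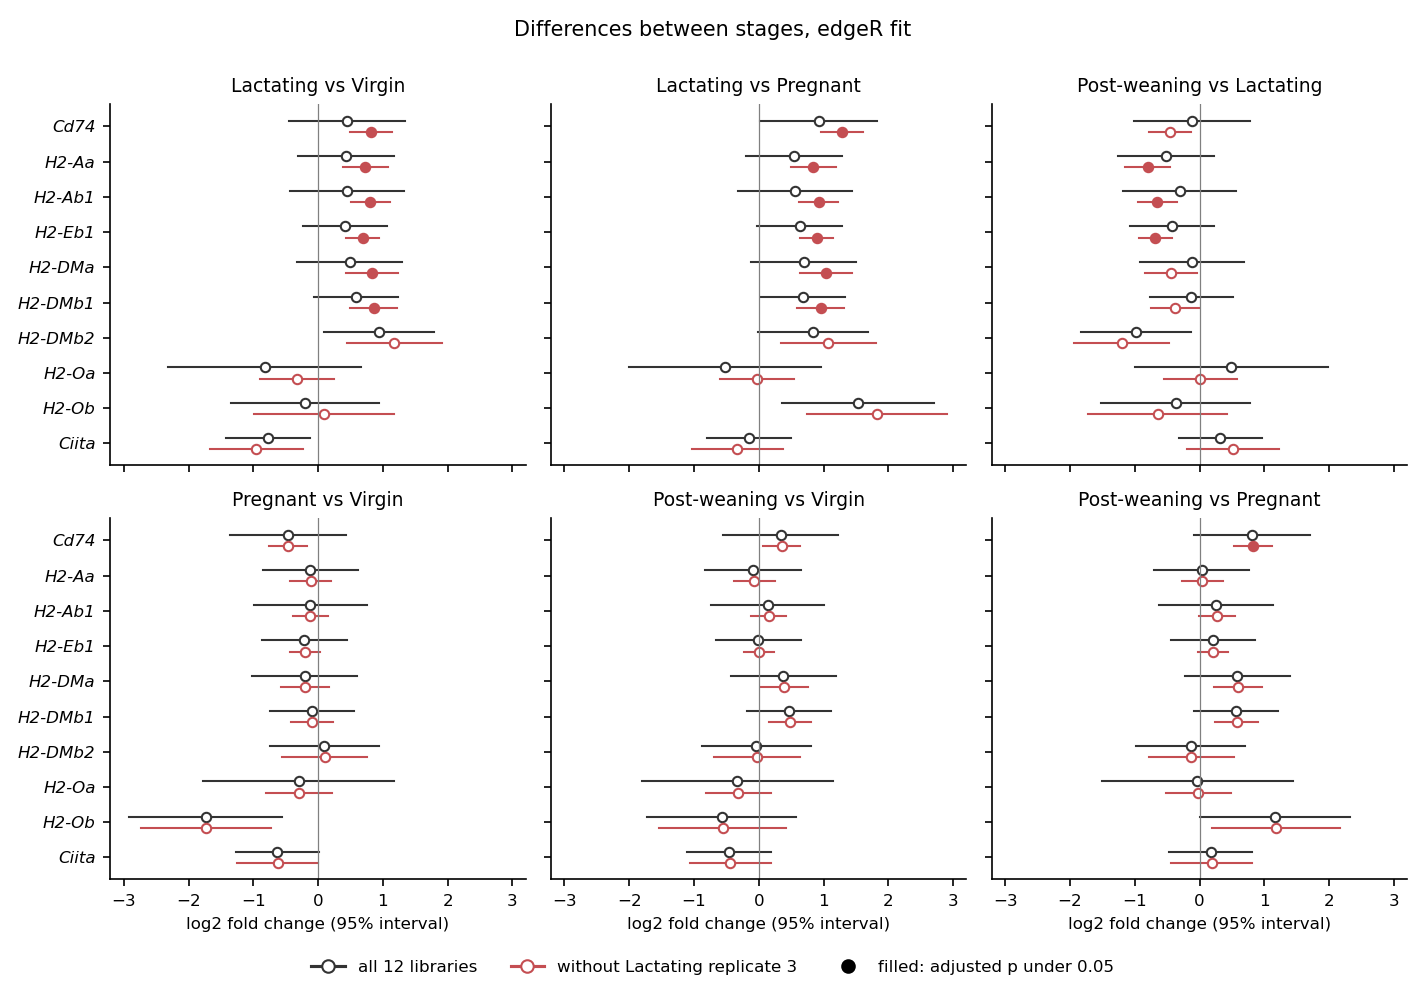
Log2 fold change with its 95% interval for the 10 genes in the 6 comparisons, from the edgeR fit to all 12 libraries (dark) and without Lactating replicate 3 (red); filled points have an adjusted p under 0.05. No dark point is filled, and without that library 6 points are filled in Lactating against Virgin and 6 in Lactating against Pregnant.

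A ratio of 2 genes within a library depends on no scaling. The ratio of Cd74 to H2-Ab1 per kb was 2.35, 2.13 and 2.27 in Virgin and 1.91, 1.67 and 1.70 in Pregnant libraries. It was 2.30, 2.22 and 2.28 in the Lactating and 2.59, 2.61 and 2.55 in the Post-weaning libraries. Lactating replicate 3, with the lowest Cd74 level of all, lay between the other Lactating libraries, and the SD of the 3 was 0.03 in log2. Pregnant libraries were below, and Post-weaning libraries above, every library of the other stages, and only Lactating and Virgin overlapped. The difference was -0.36 in log2 between Pregnant and Virgin, 0.37 between Lactating and Pregnant, 0.56 between Post-weaning and Pregnant, 0.20 between Post-weaning and Virgin and 0.19 between Post-weaning and Lactating. Each of these 5 gave p = 0.1 in the exact two-sided permutation test over libraries, the smallest that 3 against 3 allow, and 0.273 after adjustment over the 30 ratio comparisons.

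H2-DMa and H2-Oa encode the alpha chains of H2-DM and H2-DO. Their ratio was 10.6, 11.1 and 11.1 in the Virgin and 10.1, 14.4 and 10.9 in the Pregnant libraries. It was 18.4, 16.9 and 18.1 in Post-weaning and 29.5, 20.4 and 119.6 in Lactating libraries, the last resting on the 41 counts of H2-Oa in replicate 3. Lactating libraries lay above all others and Post-weaning libraries above Virgin and Pregnant ones. All pairs of stages except Pregnant and Virgin were without overlap (exact two-sided permutation p = 0.1, adjusted 0.273). Without Lactating replicate 3 the log2 difference between Lactating and Virgin was 1.17 rather than 1.93. H2-Oa encodes only the alpha chain of H2-DO, so this ratio does not give the balance of the complexes. H2-Ob, the beta chain gene, had its lowest mean in pregnancy, at 14.6 CPM beside 520 CPM for H2-DMa. Their means were 42.2 and 843 CPM during lactation, and 32.6 and 779 CPM after weaning. H2-DMa relative to H2-Ob was thus higher in Pregnant than in those later stages, the reverse of its order against H2-Oa. A ratio to H2-Ob was not tested. The other ratios separated the stages less. H2-Aa to H2-Ab1 ran from 0.508 to 0.924 and separated only Post-weaning (0.545 to 0.554) from Lactating libraries (0.602 to 0.846). H2-DMa to the sum of the H2-DM beta genes ran from 0.864 to 1.33 and overlapped in every pair. Ciita to H2-Ab1 overlapped in every pair too, and was lowest in Lactating replicates 1 and 2, at -11.5 and -11.7 in log2 per kb, and highest in Lactating replicate 3, at -9.29.

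**Figure D4:**
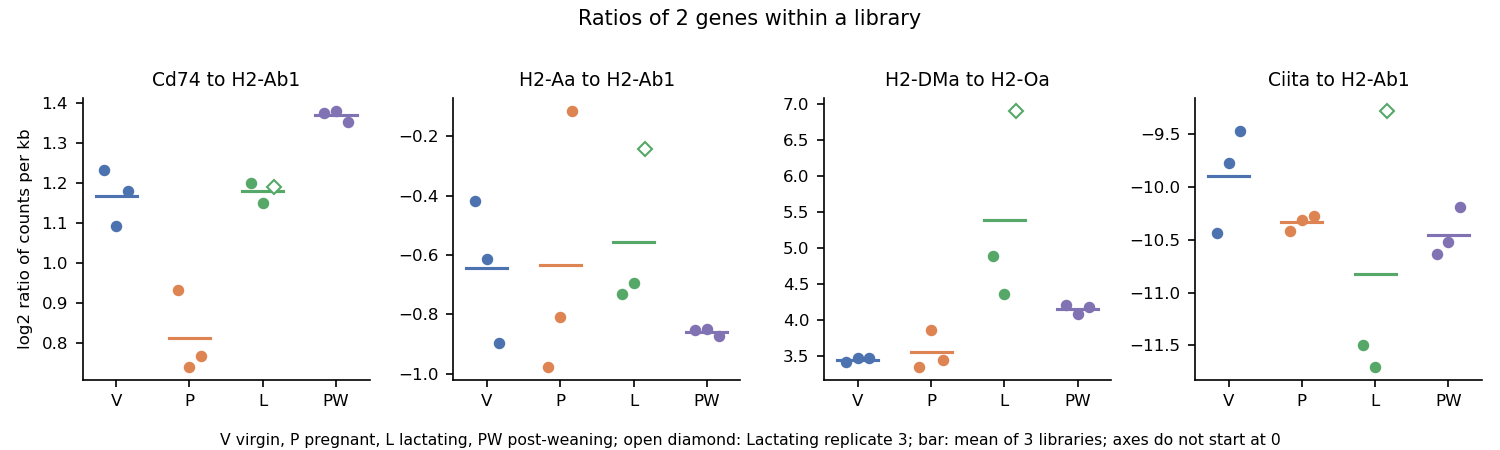
Log2 ratio per kb of 4 gene pairs in each library, by stage; bars are means of 3 libraries, the open diamond is Lactating replicate 3, and the axes do not start at 0. The Cd74 to H2-Ab1 ratio is lowest in the 3 Pregnant libraries and highest in the 3 Post-weaning libraries, and for H2-DMa to H2-Oa the diamond is the highest point, at 6.90.

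The genes whose pattern was most like that of Cd74 and the 3 classical chains were, of 6834 candidates by Pearson r over the 12 libraries, the cytokine Il6 (r = 0.951), the complement C5a receptor C5ar1 (0.947), Smim3 (0.942), P2ry10b (0.923), the complement component C1qb (0.914), Slamf7 (0.913), the adaptor Dok1 (0.907) and the lectin receptor Clec4e (0.905). Only 0.161% of the candidates had r over 0.9, and the median was 0.056. In each of the 8, Lactating replicates 1 and 2 were the highest libraries, and replicate 3 was the lowest in all but Slamf7. Il6 had 202, 221 and 1.05 CPM in the Lactating libraries and 7.80 to 26.6 in the other stages. Without Lactating replicate 3 their r ran from 0.851 to 0.954. These values are descriptions, and the libraries share the scaling.

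Other genes of the pathway were followed in 6 lists, 38 genes in all, and each passed the filter on low counts. Of these, 9 were called in at least 1 of the 7 tests, where 5.18% of all 12672 genes tested were. The lists were chosen with earlier results of these data known. The counts of calls here and below are therefore descriptions, and an excess over all genes cannot be read from them. They were Ifngr1, Jak2 and Irf1 of 9 inputs to Ciita, Ifi30 of 8 proteolysis genes, Marchf1, Cd83, Il10 and Il10ra of 6 turnover genes and Icosl of 7 T cell ligands. None of the 7 factors that bind class II promoters (Rfx5, Rfxap, Rfxank, Nfya, Nfyb, Nfyc and Creb1) was called, nor was H2-Eb2, the other class II chain. None of these 8 had an unadjusted p under 0.05 in any edgeR test. Without Lactating replicate 3, edgeR called more genes of these lists. Among them, in Pregnant against Virgin, were Ctsz (1.09, adjusted p = 0.00156), Ctsl (0.65, 0.0358) and Cst3 (-1.01, 0.00665). In that comparison 3.26% of all genes were called. Spi1 was then higher in Lactating than in Virgin (0.87, 0.0176) and Pregnant libraries (0.72, 0.0294). Cd40 was higher in Lactating than in Pregnant libraries (1.78, 0.00817).

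Among the inputs to Ciita, Irf1, a factor that drives the interferon-inducible Ciita promoter, fell in pregnancy. It had 163, 198 and 296 CPM in the Virgin and 123, 92.9 and 85.0 in the Pregnant libraries. The Lactating libraries had 270, 266 and 300 CPM and the Post-weaning libraries 220, 207 and 240. It was lower in Pregnant than in Virgin libraries, at -1.13 ± 0.24 in log2 with edgeR adjusted p = 0.0430, and higher in Lactating than in Pregnant libraries, at 1.48 ± 0.24 with adjusted p = 0.0055. The first call held only when Virgin replicate 1 or Lactating replicate 3 was the library left out, with adjusted p up to 0.202 without each of the others, and the second held in each of the 12 fits. The first was also lost with no filter on low counts (adjusted p = 0.0521) and in a fit to the 6 libraries compared (0.0928). In Pregnant against Virgin 1 of the 9 inputs fell (0.876% of all genes did) and 0 rose, with a median of -0.22 against 0.03 over all genes. In Lactating against Pregnant 2 rose, Irf1 and Jak2 (2.65% of all genes), and 1 fell, Ifngr1 (1.2%).

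Jak2, a kinase of the interferon-gamma receptor, had 34.0, 41.4 and 20.8 CPM in the Pregnant and 87.2, 132 and 139 in the Lactating libraries, at 1.90 ± 0.36 with edgeR adjusted p = 0.0126. Ifngr1, the ligand-binding chain of that receptor, had 812, 1109 and 661 CPM in the Pregnant and 374, 415 and 266 in the Lactating libraries, at -1.29 ± 0.28 with adjusted p = 0.0265. Lactating replicate 3 went with the other Lactating libraries for all 3 of these genes. The call of Jak2 was lost without Pregnant replicate 1 or 3 (adjusted p up to 0.0551) and that of Ifngr1 without Pregnant replicate 1 or 2 (up to 0.130), and in a fit to the 6 libraries compared they had adjusted p = 0.0605 and 0.103. Irf8, a lineage factor of macrophages, was not called in any test (lowest adjusted p 0.360), and its level ran from 148 to 294 CPM over the 12 libraries.

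Ifi30, the lysosomal thiol reductase GILT that opens disulfide bonds of antigens, was higher in pregnancy than at the other stages. It had 200, 177 and 149 CPM in the Virgin, 659, 763 and 679 in the Pregnant, 174, 201 and 171 in the Lactating and 139, 181 and 239 in the Post-weaning libraries. The 3 Pregnant libraries stood apart from the other 9, whose values overlapped. The log2 fold change was 1.998 ± 0.22 in Pregnant against Virgin (edgeR adjusted p = 0.00507), -1.94 ± 0.22 in Lactating against Pregnant (adjusted p = 0.000717) and -1.91 ± 0.22 in Post-weaning against Pregnant (adjusted p = 0.0062). Leaving out each library in turn kept the first 2 calls, and the third was lost only without Pregnant replicate 2 (adjusted p = 0.0579). Beside it, Lyz2, another lysosomal gene of macrophages, had 24327 to 27315 CPM in the Pregnant and 3120 to 5447 in the Virgin libraries. The macrophage identity list, which includes Lyz2, held 4.23% to 4.28% of counts in Pregnant and 1.55% to 1.69% in Virgin libraries. Its 12 genes did not rise as a group: their median log2 fold change in Pregnant against Virgin was -0.07, against 0.03 over all genes. The part of Lyz2 in the result was not tested. Ctss, the protease that trims the invariant chain, was not called in any test (lowest adjusted p 0.744). It ranged from 9590 to 19268 CPM in 11 libraries and was 2855 in Lactating replicate 3.

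Of the genes listed for how long class II stays on the surface, 4 of 6 were called. That list was chosen with earlier results known and holds Il10 together with its receptor chains Il10ra and Il10rb. In Lactating against Pregnant 2 of 6 rose (2.65% of all genes did) and 1 fell (1.2%), with a median of 0.39 against -0.14 over all genes. In Pregnant against Virgin 2 fell (0.876% of all genes), with a median of -0.55 against 0.03, and in Post-weaning against Pregnant 3 rose (0.576% of all genes), with a median of 0.87 against 0.01. Cd83, a membrane protein that stabilizes class II by opposing MARCH1, had 3107, 3874 and 3685 CPM in the Virgin and 844, 576 and 883 in the Pregnant libraries. It had 9328, 7404 and 2625 CPM in the Lactating and 3956, 3165 and 3677 in the Post-weaning libraries. All 3 Pregnant libraries lay below the other 9, and the log2 fold change was -2.21 ± 0.39 against Virgin (edgeR adjusted p = 0.0188), 3.07 ± 0.40 in Lactating against Pregnant (adjusted p = 0.00159) and 2.23 ± 0.39 in Post-weaning against Pregnant (adjusted p = 0.0266). The call in Lactating against Pregnant held in all 12 fits that left out a library and missed the threshold in a fit to the 6 libraries compared (adjusted p = 0.0505). The first was lost without Virgin replicate 2 or 3 or any Pregnant library (adjusted p up to 0.111), and the last without any library of the stages compared (up to 0.169).

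Marchf1, which encodes MARCH1, the ligase that marks class II for degradation, fell in lactation. It had 133, 71.9 and 104 CPM in the Virgin, 114, 77.4 and 61.8 in the Pregnant, 43.7, 22.1 and 31.1 in the Lactating and 96.5, 149 and 140 in the Post-weaning libraries. The 3 Lactating libraries were below the other 9, replicate 3 among them. The log2 fold change was -1.67 ± 0.35 in Lactating against Virgin (edgeR adjusted p = 0.0345), -1.39 ± 0.34 in Lactating against Pregnant (adjusted p = 0.0480) and 1.99 ± 0.35 in Post-weaning against Lactating (adjusted p = 0.0263). The first was lost without Virgin replicate 1 or 3, Post-weaning replicate 2 or 3, Pregnant replicate 2 or Lactating replicate 2 (adjusted p up to 0.112). The second held only without Virgin replicate 1, Virgin replicate 2 or Lactating replicate 1 (otherwise up to 0.185), and the third was lost without Post-weaning replicate 2 or 3, Pregnant replicate 2 or Lactating replicate 2 (up to 0.123). In fits to the 6 libraries compared the adjusted p of the 3 were 0.242, 0.147 and 0.145, and limma-voom gave 0.0639 and 0.0875 for the first 2.

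Il10, a cytokine known to induce MARCH1 and lower surface class II, rose in lactation. It had 169, 146 and 232 CPM in the Virgin, 105, 71.9 and 134 in the Pregnant, 1183, 1238 and 491 in the Lactating and 459, 312 and 434 in the Post-weaning libraries. Each Lactating library exceeded every library of the other stages. The log2 fold change was 2.41 ± 0.37 in Lactating against Virgin (edgeR adjusted p = 0.00828) and 3.23 ± 0.38 in Lactating against Pregnant (adjusted p = 0.000879), and each held in all 12 fits that left out a library, though the first was lost in a fit to the 6 libraries compared (adjusted p = 0.164). In Post-weaning against Pregnant it was 1.95 ± 0.36 (adjusted p = 0.0343), held only without Virgin replicate 2 or Lactating replicate 3 and otherwise up to adjusted p = 0.211. Its receptor chain Il10ra had 243, 332 and 362 CPM in the Virgin, 153, 143 and 148 in the Pregnant, 218, 234 and 220 in the Lactating and 241, 353 and 379 in the Post-weaning libraries. It was lower in Pregnant than in Virgin libraries (-1.08 ± 0.21, adjusted p = 0.0318) and higher in Post-weaning than in Pregnant libraries (1.13 ± 0.21, adjusted p = 0.0344). The first held only without Virgin replicate 1, Post-weaning replicate 1 or Lactating replicate 3 (otherwise up to 0.171) and the second only without Virgin replicate 1 or Lactating replicate 3 (otherwise up to 0.211).

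Of the T cell ligands, Icosl, which binds ICOS on T cells, was called in Lactating against Pregnant, at 2.51 ± 0.40 with edgeR adjusted p = 0.00563, and this held in all 12 fits that left out a library but not in a fit to the 6 libraries compared (adjusted p = 0.0605). It had 41.0, 24.5 and 51.8 CPM in the Pregnant and 266, 294 and 108 in the Lactating libraries, so every Lactating library was higher. Cd86, a ligand of CD28, had 1296, 1269 and 1004 CPM in the Virgin, 975, 1075 and 658 in the Pregnant, 2690, 3294 and 683 in the Lactating and 1241, 1343 and 956 in the Post-weaning libraries. It showed the same split of the Lactating libraries as the class II chains and was not called, with the lowest adjusted p at 0.142, in Lactating against Pregnant. Without Lactating replicate 3 edgeR called it in Lactating against Virgin (1.28 ± 0.21, adjusted p = 0.00857), in Lactating against Pregnant (1.68 ± 0.22, adjusted p = 0.000812) and in Post-weaning against Lactating (-1.28 ± 0.21, adjusted p = 0.0127).

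**Figure D5:**
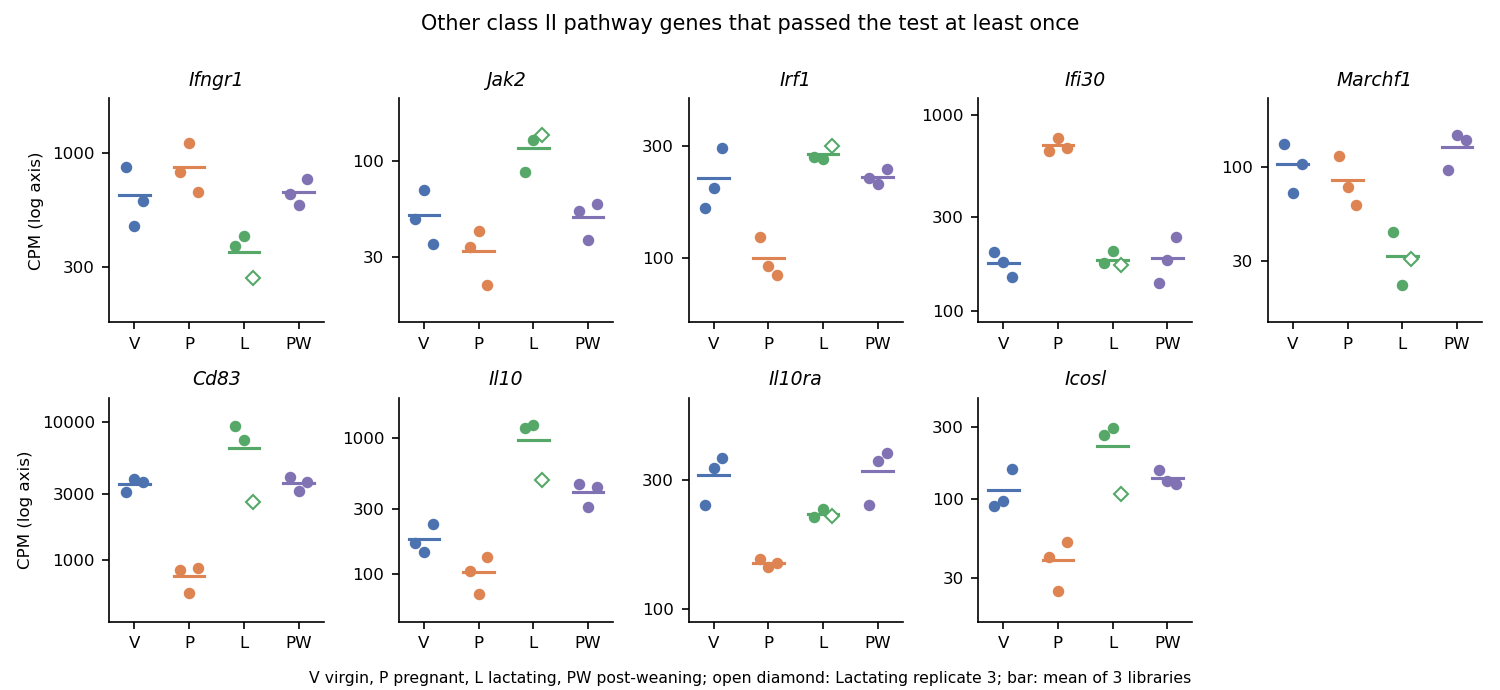
CPM of the 9 other pathway genes that passed the edgeR test at least once, in every library, on log axes by stage; bars are means of 3 libraries and the open diamond is Lactating replicate 3. The 3 Pregnant points of Ifi30 sit at 659 to 763 CPM, above the other 9 libraries, those of Cd83 sit below all others, and the 3 Lactating points of Marchf1 sit at 22.1 to 43.7 CPM.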

How the data were processed

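The authors deposited 1 table of raw counts per gene, made with featureCounts and the mm10 build per the submitters' processing notes, with the exonic length of each gene in the same table. The sources used here do not give versions, aligner or strand setting. Of 27179 Entrez identifiers, 25275 (93.0%) matched a symbol, and the rest held at most 0.825% of a library's counts. The rule for the 10 genes uses no measured value, but this set and all lists were chosen with earlier results of these data known.

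Counts were tested with edgeR 4.0.16 (quasi-likelihood test, robust, in R 4.3.3) over all 12 libraries with a mean per stage, TMM scaling, the filterByExpr filter (12672 genes kept) and Benjamini-Hochberg adjustment over all of them. A gene was called at an adjusted p under 0.05. Named were all 10 genes, each called pathway gene, and the 8 genes nearest to the mean of Cd74, H2-Aa, H2-Ab1 and H2-Eb1 among those with a mean log2 CPM of at least 3. Ctss, Ifi30, Marchf1, Irf8 and Cd86 were named whether called or not, and H2-Ea, Lyz2 and the single cell type markers after their values were seen. Ratios used counts plus 0.5, and ratios and shares were tested with an exact permutation test (scipy 1.17.1). Alternatives were DESeq2 1.42.0, limma-voom 3.58.1, other scalings, filters and fits, a replicate block, and each library left out in turn. Scaling by library totals, with and without Lactating replicate 3, was added after seeing the data. No libraries of a stage were identical or within sampling noise of each other. The edgeR fit was tested on simulated data of 12132 genes for Pregnant against Virgin, and 0 of the 51 calls were false. Recovered were 0 of 57 genes with a simulated fold of 2, 16 of 72 at a fold of 4, and 35 of 71 at a fold of 8. The counts carry no molecular identifiers, so intervals of a library's counts cover less than the error between libraries.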

Additional observations from a re-analysis of the deposited data

How the results depend on the processing

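Of 1320 recomputed fold changes of the 10 genes, 1254 kept their direction and their side of the threshold, 22 became called, 16 of these without Lactating replicate 3, and 44 changed sign, none of those beyond 0.232 in log2 or with an adjusted p under 0.807. With DESeq2 the genes called over the whole table were 659 in Pregnant against Virgin, 1161 in Lactating against Virgin, 125 in Post-weaning against Virgin, 1465 in Lactating against Pregnant, 505 in Post-weaning against Pregnant, 919 in Post-weaning against Lactating and 1455 for any difference, in place of 167, 246, 0, 488, 91, 117 and 424 with edgeR, and the genes of the set called were 1 in the first of these. With limma-voom they were 298 in Pregnant against Virgin, 11 in Post-weaning against Virgin, 167 in Post-weaning against Pregnant, 201 in Post-weaning against Lactating and 724 for any difference. In fits to the 6 libraries compared they were 0 in Lactating against Virgin, 1 in Post-weaning against Virgin, 147 in Lactating against Pregnant, 590 in Post-weaning against Pregnant and 3 in Post-weaning against Lactating, and Cd74 was then the 1 gene of the set called in Post-weaning against Pregnant (0.80, adjusted p = 0.0262). With library totals and Lactating replicate 3 left out, 427 genes were called in Pregnant against Virgin, 602 in Lactating against Virgin, 10 in Post-weaning against Virgin, 979 in Lactating against Pregnant, 284 in Post-weaning against Pregnant, 303 in Post-weaning against Lactating and 880 for any difference, with 3, 1 and 1 of the set in Lactating against Pregnant, Post-weaning against Pregnant and any difference. The cause was not tested.

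Fold changes of the set also changed sign. In Post-weaning against Pregnant, H2-Oa was 0.013 with DESeq2, 0.013 with RLE size factors and 0.024 with limma-voom, and H2-Aa was -0.064 with library totals and -0.064 with Lactating replicate 3 left out as well. In Post-weaning against Lactating, limma-voom gave 0.13 for Cd74, 0.13 for H2-DMa and 0.018 for H2-DMb1, and library totals gave 0.18, 0.18 and 0.14. Without a filter on low counts H2-Eb1 was 0.0055 in Post-weaning against Virgin.

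The replicate numbers showed no sign of pairing the libraries. Over 18 pairs of libraries with the same number the correlation of their deviations from the stage means ran from -0.062 to 0.063. Of the 12 libraries, 4 correlated best with their own number. A correlation over all genes cannot exclude a pairing or batch that touches only some genes. With the replicate block, 100 genes were called in Pregnant against Virgin, 139 in Lactating against Virgin, 35 in Post-weaning against Pregnant, 42 in Post-weaning against Lactating and 223 for any difference, and 0 of the set in each. Of the calls of named pathway genes, 8 were lost with the block: Irf1 (adjusted p = 0.0858) and Il10ra (0.0506) in Pregnant against Virgin, Marchf1 in Lactating against Virgin (0.0513), Marchf1 (0.0599) and Ifngr1 (0.0501) in Lactating against Pregnant, and Il10 (0.0815), Il10ra (0.0623) and Cd83 (0.0623) in Post-weaning against Pregnant. The block turned H2-Eb1 to 0.0062 in Post-weaning against Virgin, H2-Oa to 0.0075 in Post-weaning against Pregnant and Cd74 to 0.0017 in Post-weaning against Lactating.

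Leaving out each library in turn, the genes called ranged from 40 to 438 in Pregnant against Virgin, from 111 to 416 in Lactating against Virgin, from 0 to 10 in Post-weaning against Virgin, from 194 to 689 in Lactating against Pregnant, from 1 to 308 in Post-weaning against Pregnant, from 26 to 242 in Post-weaning against Lactating and from 171 to 773 for any difference. Those of the set ranged from 0 to 6 in Lactating against Virgin, in Lactating against Pregnant and for any difference, from 0 to 3 in Post-weaning against Lactating and from 0 to 1 in Post-weaning against Pregnant.

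Some signs changed with the library left out. The log2 fold changes then ranged as follows. In Pregnant against Virgin they ran from -0.20 to 0.0061 for H2-Ab1, from -0.19 to 0.0064 for H2-DMb1 and from -0.012 to 0.21 for H2-DMb2. In Lactating against Virgin H2-Ob ran from -0.62 to 0.094. In Post-weaning against Virgin they ran from -0.18 to 0.0073 for H2-Aa, from -0.087 to 0.070 for H2-Eb1 and from -0.16 to 0.15 for H2-DMb2. In Post-weaning against Pregnant they ran from -0.074 to 0.16 for H2-Aa, from -0.26 to 0.050 for H2-DMb2, from -0.13 to 0.15 for H2-Oa and from -0.067 to 0.28 for Ciita. In Post-weaning against Lactating they ran from -0.46 to 0.23 for Cd74, from -0.65 to 0.022 for H2-Ab1, from -0.44 to 0.20 for H2-DMa and from -0.38 to 0.16 for H2-DMb1. Of the log2 ratios, H2-Aa to H2-Ab1 ran from -0.25 to 0.18 in Pregnant against Virgin, from -0.071 to 0.20 in Lactating against Virgin, from -0.095 to 0.34 in Lactating against Pregnant and from -0.40 to 0.034 in Post-weaning against Pregnant. H2-DMa to its beta genes ran from -0.17 to 0.080 in Lactating against Pregnant, from -0.024 to 0.13 in Post-weaning against Pregnant and from -0.024 to 0.23 in Post-weaning against Lactating. H2-DMa to H2-Oa ran from -0.055 to 0.20 in Pregnant against Virgin, Cd74 to H2-Ab1 from -0.027 to 0.043 in Lactating against Virgin, and Ciita to H2-Ab1 from -0.061 to 1.15 in Post-weaning against Lactating. The difference in the share of counts ran from -0.86 to 4.40 percentage points in Lactating against Virgin and from -2.74 to 2.52 in Post-weaning against Lactating. Ratios and shares with a stage of 2 libraries are values with no test.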
